A study of Mus musculus with 8 samples.

Results

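The core autophagy machinery was taken as 35 named genes that act before, at and after the closure of the autophagosome, out of 57186 genes listed per library. They fall into 6 steps: 5 initiation genes, 8 genes of the PI3K complex, 6 conjugation genes, 9 genes for WIPI proteins, ATG2 proteins and membrane supply, 4 ATG4 protease genes and 3 fusion genes. The ATG8 genes are not among them. The list was fixed by name, each symbol matched 1 Ensembl identifier, and all 35 genes passed the filter on low counts. RNA was sequenced from mouse brain (the tissue label reads "brian"), in 4 libraries from animals with a conditional knockout (cKO) of Akap11 and 4 from controls. Genotype is the only difference the labels state. The sources used here do not give the recombinase line, the deleted exons, strain, brain region, age or treatment. They also do not say that the libraries of a group came from different animals, and the p-values cover only the spread among libraries.

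Autophagy delivers cytoplasm to the lysosome inside a double membrane that grows around its cargo. The ULK1 kinase complex starts the process, a class III phosphatidylinositol 3-kinase marks the growing membrane, WIPI proteins read that mark and ATG2 channels lipid into it. A pair of ubiquitin-like conjugation systems then attach ATG8 proteins to the membrane, ATG4 proteases prime and release ATG8, and tethers and SNAREs fuse the closed vesicle with the lysosome. In neurons the pathway is known for clearing proteins and organelles along axons, and loss of Atg5 or Atg7 in the mouse nervous system causes neurodegeneration. AKAP11, which anchors protein kinase A, is described by the series title as an autophagy receptor. The comparison asks whether RNA of the machinery differs in brain of animals with the conditional knockout of the receptor gene.

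No core autophagy gene passed the test. By edgeR's quasi-likelihood test, 0 of 35 passed an adjusted p of 0.05, against 4 of 16766 genes tested in all (0.0239%). The lowest adjusted p of a member was 0.889. At an unadjusted edgeR p under 0.05 there was 1 member, the conjugation gene Atg10, which was lower. Over all tested genes 4.78% reached that level (2.87% higher and 1.91% lower in cKO), so a count of 1 in 35 lay near the background. In DESeq2 0 members passed, with 0 at an unadjusted p under 0.05, and in limma voom 0 passed, with 1 at that level. No member had its 4 cKO libraries all above or all below its 4 control libraries, which happened for 2.96% of all tested genes (1.57% higher and 1.39% lower in cKO). Of the 35 log2 fold changes (cKO minus control), 21 were positive and 14 negative, where 51.2% of all tested genes were positive, with a median of 0.0094 beside a median of 0.0034 over all genes tested.

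The intervals were narrow for most members. For 33 of 35 (94.3%) the 95% interval excluded a change above 1.5-fold in either direction, beside 76.8% of all tested genes. The exceptions were Atg7 and Atg10. At least 10 CPM was reached by 32 of the 35 members and by 10368 of the 16766 tested genes. Fewer reads give wider intervals, so the 2 percentages compare genes of unlike level. In simulated data with the same depth and 100 changed genes, edgeR recovered 90% of those changed by 1 on the log2 scale. Of 100 genes changed by 0.5 it recovered 66%. The adjusted threshold is stricter where fewer genes differ, and only 4 passed here. These rates therefore do not give the power for the members. In RNA from bulk tissue, fewer cells of a type and less RNA per cell cannot be told apart, and a change in a small set of cells would be diluted.

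**Figure D1:**
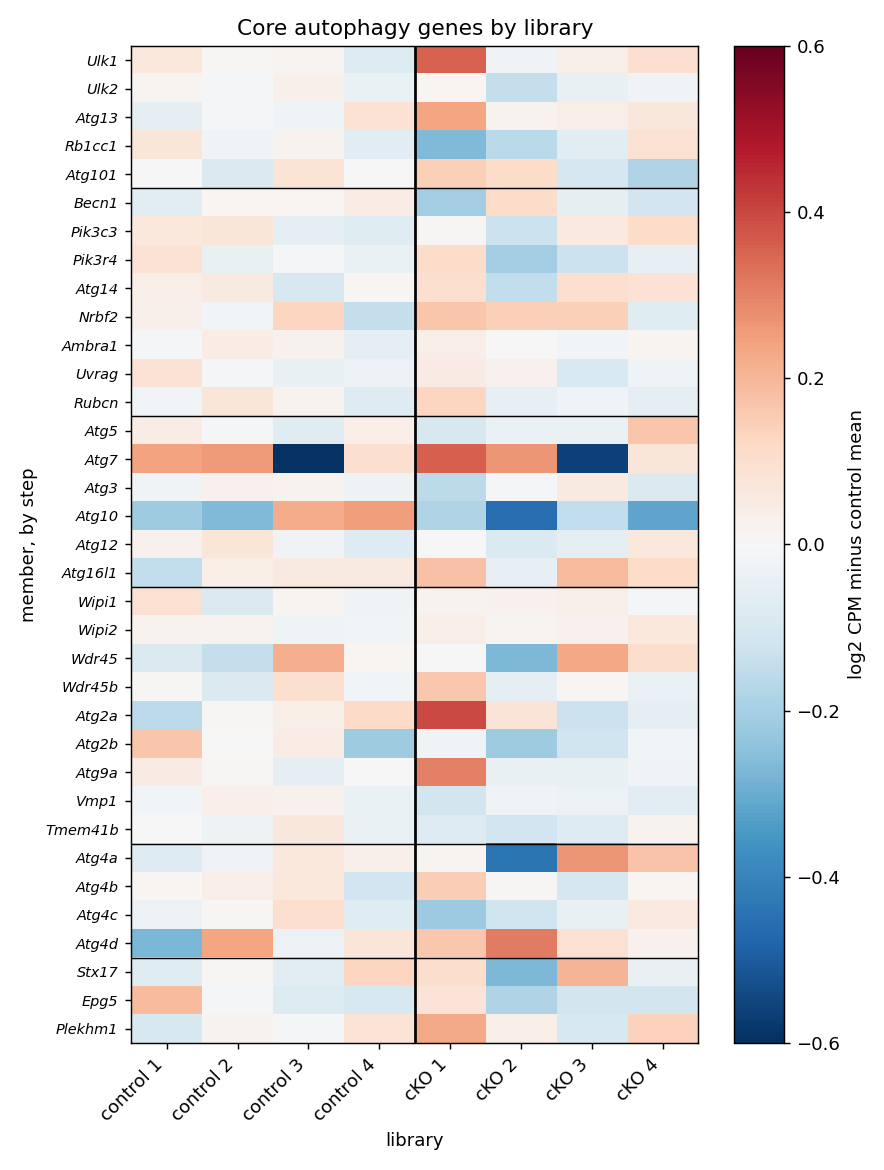
Each row is 1 of the 35 genes, ordered by step, and each column 1 library. Colour gives log2 CPM minus the mean of the 4 control libraries, and the black vertical line separates control from cKO. The darkest blue cells are Atg7 in control 3 (-0.59) and in cKO 3 (-0.56), and the darkest red cell is Atg2a in cKO 1 (0.40).

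The targeted gene checks the labels: Akap11 lay between 214 and 241 CPM (counts scaled to library size by TMM) in the cKO libraries and between 291 and 373 CPM in the controls, without overlap. Its log2 fold change of -0.50 had an SE of 0.069 and an edgeR adjusted p of 0.0103. Without control 2 that p was 0.0616, without cKO 2 it was 0.104, and without both control 3 and cKO 3 it was 0.157. The cKO level was 0.71 of the control level, so most of the Akap11 RNA was still counted in the cKO libraries. The reason was not tested, and the members' values do not describe a full loss of this RNA. Reads in genes numbered 13841218 to 19991942 per library, and members held 28390 to 38159 of them. The share of a library's reads that fell in genes was 63.8% for cKO 1, 79.7% for cKO 2 and 73.7% to 75.5% for the rest. Library cKO 1 stood apart for members too. Its deviations from the control mean followed the GC content of the transcript (Spearman's rho 0.71 over the 35 genes and 0.49 over all tested genes). In cKO 2 the value over members was 0.48 and in the other libraries it ran from -0.22 to 0.17. Neuron, astrocyte, oligodendrocyte, microglia and endothelial markers were all present, and the groups overlapped in the summed CPM of each list. The sums of the choroid plexus and blood lists overlapped too. Of the single markers, only the microglia gene P2ry12 had groups that did not overlap, beside 2.96% of all tested genes. It was lower in cKO (log2 fold change -0.26, SE 0.080, edgeR adjusted p 0.889). The 5 neuron markers summed to 4911 to 5339 CPM in control and 4672 to 5108 CPM in cKO libraries, and the 5 astrocyte markers to 4018 to 4672 and 3544 to 4061 CPM, each lowest in cKO 1. Of the cKO astrocyte sums, only that of cKO 4 lay inside the control range. Single markers went both ways in cKO 1. Snap25 (2242 CPM) and Slc1a2 (2035 CPM), which weigh most in these sums, were lowest there. Tubb3 (421 CPM), Aldoc (788 CPM) and Aldh1l1 (57.0 CPM) were highest there. The part of cell types in the members' values was not tested. The members together held 1915 to 1969 CPM in control and 1888 to 2054 CPM in cKO libraries, with the lowest sum in cKO 2 and the highest in cKO 1.

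**Figure D2:**
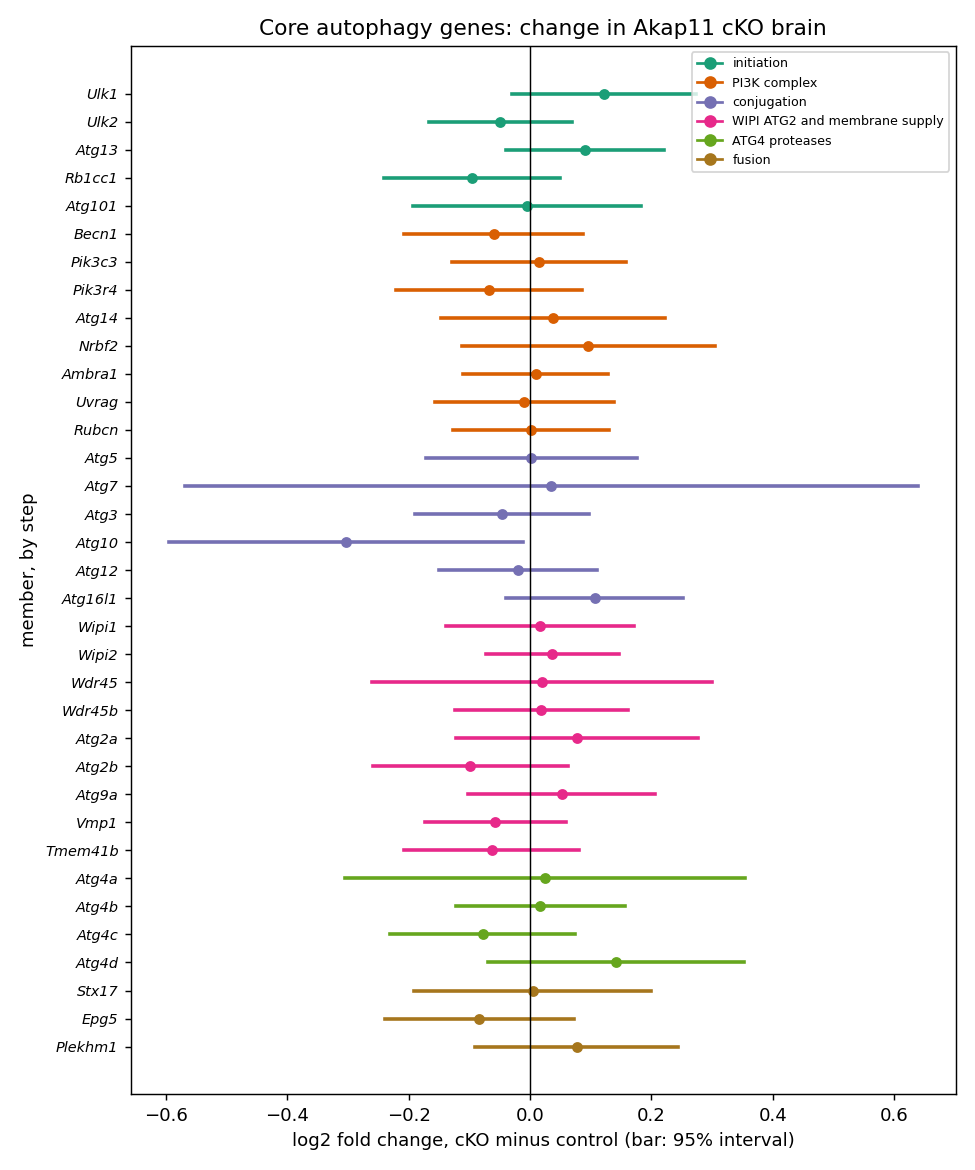
Points give the log2 fold change, cKO minus control, of each of the 35 genes and bars its 95% interval from the edgeR fit, with colours for the 6 steps. All bars cross 0 except that of Atg10 (-0.60 to -0.01), and the widest bar belongs to Atg7 (-0.57 to 0.64).

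The initiation genes encode the ULK kinases and their partners. Ulk1, the kinase that starts autophagy, had the lowest p of the step. Its control libraries held 102, 97.7, 98.3 and 91.9 CPM and its cKO libraries 125, 96.1, 99.8 and 104 CPM. The highest value was that of cKO 1, and both cKO 2 and cKO 3 lay inside the control range. The log2 fold change was 0.12 (SE 0.073, edgeR adjusted p 0.889), and without cKO 1 it was 0.04. Ulk2, its paralog, held 129, 127, 130 and 124 CPM in control and 128, 115, 124 and 125 CPM in cKO libraries (log2 fold change -0.05, SE 0.056). Both groups of Ulk2 overlapped, with cKO 2 lowest. Atg13, the adaptor that links the kinase to its scaffold, held 98.1, 102, 100 and 108 CPM in control and 120, 103, 105 and 107 CPM in cKO libraries (0.09, SE 0.062; 0.04 without cKO 1). Here again cKO 1 was the highest library. Rb1cc1, the FIP200 scaffold and the member with the lowest GC content (39.1%), went the other way in cKO 1, which was lowest at 92.3 CPM; its log2 fold change was -0.10 (SE 0.070), or -0.05 without that library. Atg101, which stabilises ATG13, stood at 22.5 ± 1.11 CPM in controls and at 22.5 ± 2.48 CPM in the knockout (SD, n = 4).

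The PI3K complex makes the lipid mark, with Pik3c3 (VPS34) as the catalytic subunit, Pik3r4 (VPS15) as its regulatory kinase and Becn1 as the core subunit. Atg14 directs the complex to autophagy and Uvrag to endosomes, Nrbf2 binds the ATG14 complex, Ambra1 promotes it and Rubcn inhibits the UVRAG complex. The 8 log2 fold changes ran from -0.07 (Pik3r4) to 0.10 (Nrbf2), with a median of 0.0056. Nrbf2 had the lowest p: control libraries held 13.5, 13.1, 14.5 and 12 CPM and cKO libraries 14.9, 14.7, 14.7 and 12.6 CPM. The first 3 cKO libraries lay above all controls and cKO 4 lay inside their range (SE 0.10, edgeR adjusted p 0.911). Rubcn had the highest level per length of the step, with 98.7, 105, 101 and 94.8 CPM in control and 109, 96.6, 98.6 and 96.2 CPM in cKO libraries (0.0017, SE 0.061). Its sign turned in 10 of 18 alternatives. Pik3c3 stood at 56.2 ± 2.997 and 56.7 ± 4.01 CPM (SD, n = 4), and Ambra1 at 79.3 ± 2.55 and 79.8 ± 1.31 CPM. Becn1 had -0.06 (SE 0.071), Uvrag -0.0097 (SE 0.071) and Atg14 0.04 (SE 0.088). In Becn1, 43.9% of the exon bases overlap exons of Cntd1 on the opposite strand in the GENCODE annotation, and in Uvrag 17.6% overlap Gm45187. The strand setting of the counts is not given, so the levels of these genes are uncertain.

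The conjugation genes encode the E1-like enzyme Atg7, the E2-like enzymes Atg3 and Atg10, the ubiquitin-like protein Atg12, its acceptor Atg5, and Atg16l1, which places the ATG12-ATG5 conjugate on the membrane. Atg10, which transfers ATG12 to ATG5, had the lowest p of all members. Control libraries held 7.72, 7.45, 10.5 and 10.7 CPM and cKO libraries 7.89, 6.51, 8.09 and 7.18 CPM. Control 3 and control 4 lay above every cKO library, while control 1 and control 2 lay among the cKO values. The log2 fold change, -0.30, had an SE of 0.14 and a 95% interval of -0.60 to -0.01 (unadjusted edgeR p 0.0421, adjusted p 0.889), and it ranged from -0.40 to -0.22 over the alternatives. The gene held only 109 to 213 reads per library. Atg3, which attaches lipid to ATG8 and had the highest level per length of the step, held 43.3, 44.7, 44.6 and 43.0 CPM in control and 39.3, 43.6, 45.6 and 41.4 CPM in cKO libraries (-0.05, SE 0.069). The cKO values ranged on both sides of the controls. Atg12 stood at 66.9 ± 3.01 and 65.99 ± 3.01 CPM (SD, n = 4), and Atg5 at 23.1 ± 0.872 and 23.1 ± 1.90 CPM. Atg16l1 had 0.11 (SE 0.070, edgeR adjusted p 0.889), with control 1 lowest at 55.2 CPM.

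Atg7 varied more between libraries than any other member measured at 10 CPM or more. It held 32.3, 32.7, 18.1 and 29.2 CPM in control and 35.1, 32.8, 18.5 and 28.8 CPM in cKO libraries. Control 3 and cKO 3 were low, 1 library in each group, and no other library lay below 28.8 CPM. In reads these libraries held 340 and 368, and the others 485 to 651. The pooled SD of log2 CPM within groups was 0.41, rank 26 from the top among 10368 genes with at least 10 CPM, where the median gene had 0.11. Because 1 low library sat in each group, the group means stayed close, at 28.1 ± 6.82 and 28.8 ± 7.35 CPM (SD, n = 4), and the log2 fold change was 0.04 with a 95% interval of -0.57 to 0.64 (SE 0.26, edgeR adjusted p 0.989). Leaving out both low libraries, an alternative chosen after seeing the data, gave 0.03. Atg7 was singled out here after its values were seen. In the protein-coding gene next to Atg7 on each side in chromosome order, these libraries lay much closer to the rest. Hrh1 was lowest in control 3, at 14.8 CPM, and held 16.5 CPM in cKO 3, in a range of only 14.8 to 18.5 CPM over the 8 libraries. Vgll4, on the other side, held 29.8 and 28.6 CPM in a range of 27.7 to 35.2 CPM. The members as a whole did not share the low values: in control 3 the median deviation of the 35 genes from the control mean was 0.02 and in cKO 3 it was -0.04 on the log2 scale. A median does not describe single members. Wdr45, with few reads, was highest of its group in control 3 (0.22) and in cKO 3 (0.23). No exon of Atg7 overlaps an exon of another gene in the GENCODE annotation, and the cause of the low values was not tested.

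**Figure D3:**
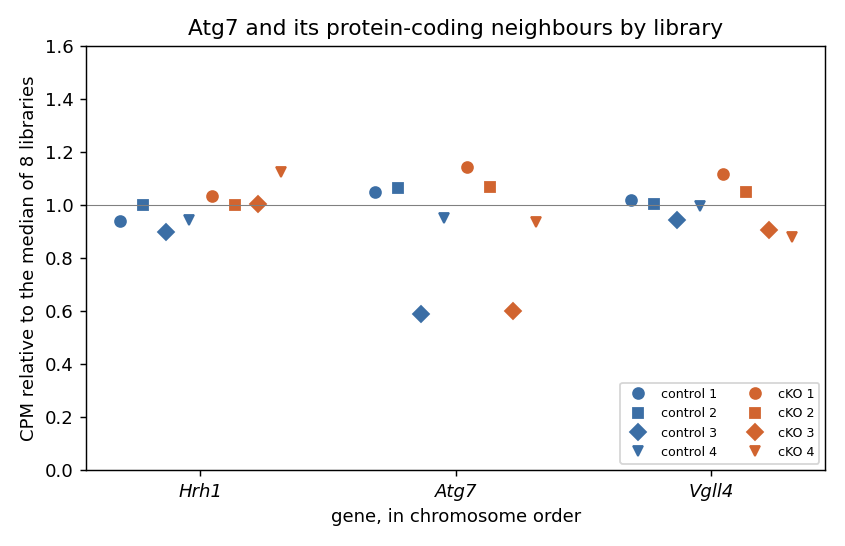
The vertical axis gives CPM divided by the median of the 8 libraries, for Atg7 and the protein-coding gene next to it on each side in chromosome order. Symbols mark the replicate number, blue is control and orange is cKO. The diamonds (control 3 and cKO 3) are far below the rest for Atg7, at 18.1 and 18.5 CPM, and close to the other libraries for its neighbours.

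The WIPI proteins bind the lipid mark, the ATG2 proteins transfer lipid, Atg9a, Vmp1 and Tmem41b encode scramblases, and none of the 9 genes of this step passed the test. Vmp1 had the highest level per length of all members. It held 103, 106, 106 and 101 CPM in control and 96.2, 102, 101 and 99.4 CPM in cKO libraries (log2 fold change -0.06, SE 0.055, edgeR adjusted p 0.905). The groups overlapped by cKO 2 and cKO 3. Its exons contain the hairpin of the microRNA gene Mir21a, whose reads these counts do not resolve. Tmem41b, its partner, had -0.06 (SE 0.069).

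The WIPI genes differed little between libraries, apart from the sparsely read Wdr45. Wipi2, which recruits ATG16L1, held 135, 134, 130 and 131 CPM in control and 136, 134, 135 and 138 CPM in cKO libraries (0.04, SE 0.053). The groups overlapped, with cKO 4 highest and control 3 lowest. Its within-group SD of log2 CPM, 0.02, was the lowest of all members. Wipi1 held 30.4, 26.9, 28.9 and 28.2 CPM in control and 29.0, 29.1, 29.3 and 28.4 CPM in cKO libraries, all cKO values inside the control range. Wdr45b (WIPI3) held 56.1, 52.6, 59.6 and 55.2 CPM in control and 62.5, 53.6, 56.3 and 54.3 CPM in cKO libraries. Wdr45 (WIPI4), the X-linked gene mutated in a human neurodegeneration with brain iron accumulation, held 7.35, 7.07, 9.11 and 7.88 CPM in control and 7.82, 6.46, 9.20 and 8.43 CPM in cKO libraries. The log2 fold changes of these genes were 0.02 for Wipi1 (SE 0.074), 0.02 for Wdr45b (SE 0.068) and 0.02 for Wdr45 (SE 0.13). In Wdr45, 24.7% of the exon bases are shared with a same-strand gene model, Gm45208, so that part of its reads may be listed as ambiguous and its level is uncertain.

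Of the ATG2 genes, Atg2a stood out in cKO 1 and Atg2b did not. Atg2a, the member with the highest GC content (60.0%), held 59.5, 66.8, 68.0 and 71.8 CPM in control and 87.3, 70.03, 60.7 and 63.7 CPM in cKO libraries. Only cKO 1 lay above the controls, and the difference between groups, 0.08 on the log2 scale with an SE of 0.095 (edgeR adjusted p 0.915), turned to -0.04 without it. Atg2b, with the lowest p of the step, held 69.4, 61.7, 63.7 and 53.2 CPM in control and 60.6, 53.2, 56.9 and 60.99 CPM in cKO libraries (-0.10, SE 0.077, edgeR adjusted p 0.889), all cKO values lying between the controls or at their lower edge. Atg9a, encoding the membrane protein of the seed vesicles, showed the same single high library, at 96.2 CPM in cKO 1 against 75.1 to 80.7 CPM in the other 7, and its 0.05 turned to -0.04 without cKO 1. In Atg9a, 32.6% of the exon bases are shared with other gene models, most of them (1832 bases) with the same-strand model Gm29253, so its level is uncertain too. The share of ambiguous reads was highest in cKO 1, at 10.1%, and its part in these values was not tested.

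The 4 ATG4 proteases differ in how well they process ATG8 proteins, and ATG4B is known as the most active. Atg4d had the lowest p of the step: control libraries held 18.1, 25.9, 21.4 and 23.1 CPM and cKO libraries 24.5, 27.2, 23.4 and 22.3 CPM (0.14, SE 0.10, edgeR adjusted p 0.889). Control 1 and control 3 lay below every cKO library, and control 2 and control 4 lay inside the cKO range. Without control 2 its unadjusted edgeR p was under 0.05, and it was still not called. In Atg4d, 19.3% of the exon bases overlap exons of Kri1 on the opposite strand. With the strand setting not given, its level and its share of the ATG4 family are uncertain. Atg4b held 69.9, 71.5, 72.6 and 64.2 CPM in control and 77.0, 69.9, 64.8 and 70.01 CPM in cKO libraries (0.02, SE 0.067). Atg4c held 45.1, 46.5, 49.6 and 43.9 CPM in control and 39.7, 42.6, 44.7 and 48.1 CPM in cKO libraries (-0.08, SE 0.073), with cKO 1 lowest. Atg4a, X-linked, held 5.02, 5.22, 5.54 and 5.42 CPM in control and 5.35, 3.89, 6.38 and 5.98 CPM in cKO libraries (0.02, SE 0.16). Its cKO values spread on both sides of a narrow control range.

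The fusion genes act after closure: Stx17 is the SNARE of the autophagosome, Epg5 a tether that binds ATG8 and Rab7, and Plekhm1 an adaptor to the HOPS complex. Epg5 had both the lowest p and the highest level per length of the step, with 75.1, 65.5, 62.2 and 61.5 CPM in control and 69.5, 58.1, 61.1 and 60.99 CPM in cKO libraries. In each group replicate 1 was highest, and the log2 fold change was -0.08 (SE 0.075, edgeR adjusted p 0.899). Stx17 stood at 31.2 ± 2.08 and 31.3 ± 4.37 CPM (SD, n = 4), and Plekhm1 at 33.7 ± 1.70 and 35.6 ± 3.39 CPM.

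Per kilobase of exon, the members spanned from 2.01 ± 0.276 (Atg4a) to 26.4 ± 0.828 CPM per kb (Vmp1; mean ± SD over the 8 libraries, a level). Atg13 (24.1), Ulk2 (21.0) and Ulk1 (15.7) followed Vmp1. The lowest after Atg4a were Wdr45 (2.39), Atg4d (3.20), Uvrag (4.03) and Atg7 (4.08). The ranks of Wdr45, Atg4d and Uvrag are uncertain because their exons overlap those of other genes. Among all tested genes Vmp1 lay at percentile 89.0 and Atg4a at percentile 33.0. Of 34 pairs of neighbours in this order, 30 overlapped in their library ranges, and the order was separated below Atg13, Ulk2, Wdr45b and Uvrag. With the longest transcript in place of all exons as the length, the order correlated with this one at a Spearman's rho of 0.91 across genes, with Vmp1 and Atg13 still first, but Wipi2 and Wdr45b then ranked above Ulk2 and Ulk1.

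**Figure D4:**
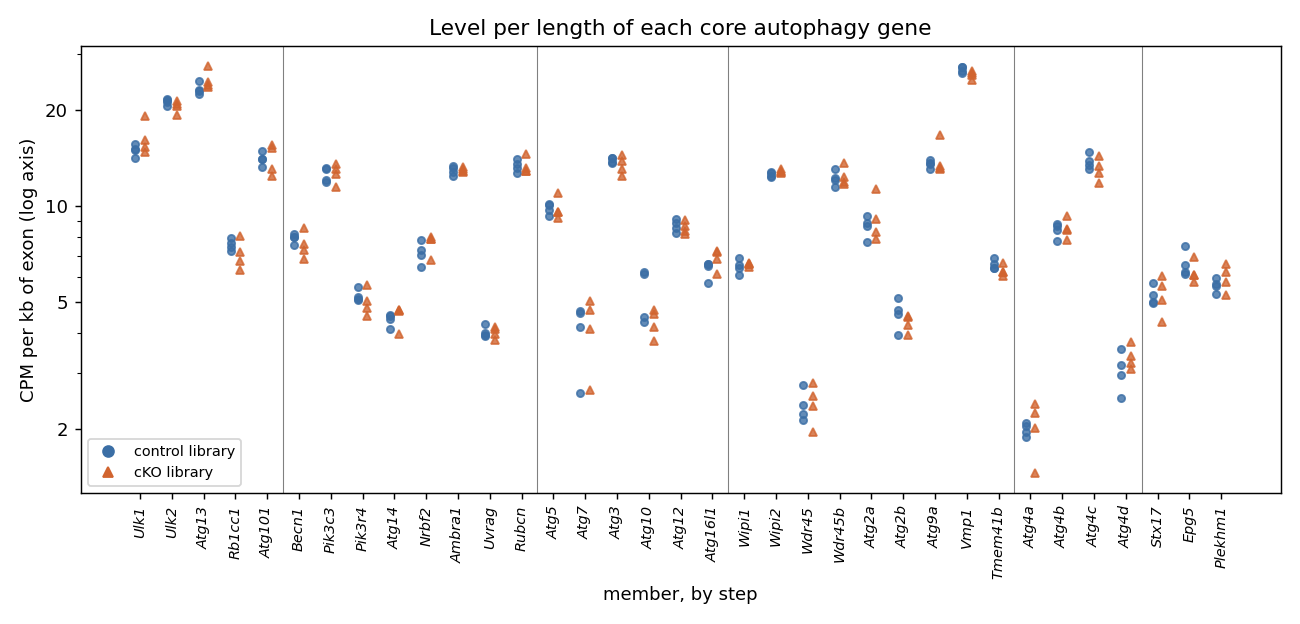
The logarithmic vertical axis gives CPM per kilobase of exon for each of the 35 genes, grouped by step with grey lines; circles are the 4 control and triangles the 4 cKO libraries. Vmp1 (26.4) is highest and Atg4a (2.01) lowest on average, and circles and triangles overlap for every gene.

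Within the paralog families, each member's share of the family's summed level per kb does not depend on how libraries are scaled. Ulk1 made up 42.1%, 41.5%, 41.1% and 40.6% of the ULK level in control and 47.2%, 43.4%, 42.7% and 43.4% in cKO libraries, the rest being Ulk2. Every cKO library lay above every control, with cKO 1 highest, and the means were 41.3% ± 0.636 and 44.2% ± 2.04 (SD, n = 4). The difference of 2.84 percentage points had an exact two-sided permutation p of 0.0286, the smallest that 4 against 4 libraries allow, and 0.286 after Benjamini-Hochberg adjustment over 10 shares, so it did not pass. Without cKO 1 the difference was 1.84 points. The log2 fold change of Ulk1 minus that of Ulk2 was 0.17, and 0.08 with GC-content offsets per library. The GC contents are 57.95% for Ulk1 and 47.0% for Ulk2, and their part in the shares was not tested beyond these offsets. In the other 3 families the groups overlapped for every member. In the WIPI family Wipi2 and Wdr45b held 37.4% and 36.3% in control libraries, Wipi1 19.3% and Wdr45 7.04%, and no cKO mean differed from these by more than the SD of the control libraries. The level of Wdr45 is uncertain because its exons overlap Gm45208, and so are these shares. Atg2a held 65.2% ± 4.18 of the ATG2 level in control and 67.8% ± 3.44 in cKO libraries. In the ATG4 family Atg4c held 50.7% in control and 48.4% in cKO libraries, ahead of Atg4b (30.8% and 31.6%), Atg4d (11.2% and 12.5%) and Atg4a (7.32% and 7.52%). By the longest transcript Atg4b came first in control libraries (44.6%) and Atg4c second (39.0%), so the order of these 2 rests on the length used.

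The GC content of the transcripts went along with the members' differences. Over the 35 genes the log2 fold changes had a Spearman's rho of 0.54 with GC content, which was 0.14 without cKO 1 and 0.04 with GC-content offsets per library. The offsets are fitted to the trend of each library with GC content, so a low rho with them is built in. The genes share all 8 libraries, so these rhos are a description across genes. Without cKO 1 the median over members was -0.03 and 13 of 35 were positive, and with GC-content offsets the median was 0.0024 and 18 were positive. With either setting 0 members passed.

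**Figure D5:**
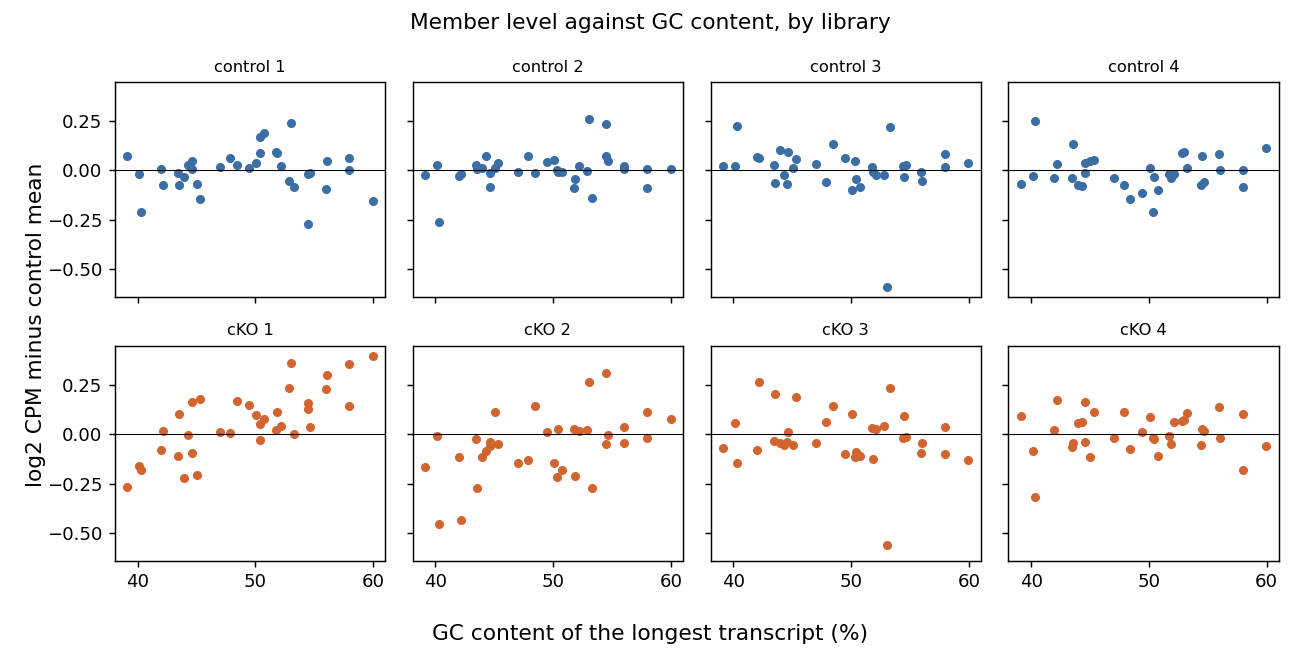
Each panel is 1 library and each point 1 of the 35 genes, with the GC content of its longest transcript in percent on the horizontal axis and log2 CPM minus the control mean on the vertical axis. In cKO 1 the points rise from left to right (Spearman's rho 0.71); the low outlying point in control 3 and in cKO 3 is Atg7.

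Regulators of the machinery were read from 3 further lists. Among 25 genes that carry nutrient and energy signals to ULK (mTORC1, the TSC and Rag proteins, the LAMTOR scaffold and AMPK), 0 passed and the median log2 fold change was 0.0024. The members with the lowest p were Rragd, a lysosomal GTPase gene, at -0.11 (SE 0.061) and Lamtor2 at -0.14 (SE 0.087), each with an edgeR adjusted p of 0.889. The groups did not overlap for 1 of the 25, which was lower in cKO, a share near the 2.96% of all tested genes (1.39% lower). It was Rheb, the GTPase that activates mTORC1, named after its values were seen, with 116, 117, 125 and 118 CPM in control and 106, 114, 113 and 116 CPM in cKO libraries; control 1 and cKO 4 lay close together, and it too missed the threshold (-0.09, SE 0.057). Among 12 SNARE, Rab7 and HOPS partners of fusion, 0 passed, with Snap29 at -0.13 (SE 0.092) and Vps11 at 0.08 (SE 0.066). Of the 12 log2 fold changes 10 were positive, where 51.2% of all tested genes were positive. How far these signs rest on single libraries was not tested.

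Of 8 transcription factor genes, 7 were tested and 0 passed, with a median of 0.05. Tfe3, which like TFEB turns on lysosomal and autophagy genes, held 36.2, 37.5, 32.9 and 35.3 CPM in control and 38.6, 38.0, 42.1 and 37.0 CPM in cKO libraries (0.13, SE 0.073, edgeR adjusted p 0.889). Tfeb held 8.57, 7.39, 7.35 and 9.19 CPM in control and 10.9, 10.4, 9.10 and 7.83 CPM in cKO libraries (0.23, SE 0.13, edgeR adjusted p 0.889). In both genes 1 cKO library or more lay inside the control range. These factors bind the E-box CACGTG. In the 250 bases before the start, 5 of the 28 members listed in the RefSeq promoter table held it (Atg3, Atg5, Atg7, Nrbf2 and Rubcn; 5 of 33 listed starts), beside 6.02% of all 32851 listed starts. The window listed for Atg7 lies inside the gene. The longer palindrome TCACGTGA was found in Atg3 and Nrbf2, beside 0.785% of all listed starts. Every TCACGTGA contains CACGTG, and both strands are covered because the motifs are palindromes. A match is a description and not a binding site. The stretches of the 2 genes that hold the longer palindrome are shown to place it. They end before the first annotated start and so stop short of the listed start. They were taken from RefSeq on GRCm38.p6 (the deposited counts used GRCm39), with CACGTG in capitals: Atg3 at chr16:45158579-45158784 on the plus strand and Nrbf2 at chr10:67285344-67285531 on the minus strand.
Atg3: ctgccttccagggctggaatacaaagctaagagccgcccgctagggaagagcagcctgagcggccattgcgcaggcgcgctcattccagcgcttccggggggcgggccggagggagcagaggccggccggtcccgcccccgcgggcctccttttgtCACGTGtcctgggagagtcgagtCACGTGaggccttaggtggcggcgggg
Nrbf2: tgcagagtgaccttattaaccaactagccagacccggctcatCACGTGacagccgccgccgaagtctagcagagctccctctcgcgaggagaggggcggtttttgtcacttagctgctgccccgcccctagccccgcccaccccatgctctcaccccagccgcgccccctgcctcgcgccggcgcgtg
Atg3 carries the E-box at 2 places, 94 and 71 bases before the listed start, and Nrbf2 at 1, 208 bases before it, counted to the listed start and not to the end of the stretch shown. In Atg3 only the place at 71 bases reads TCACGTGA, and in Nrbf2 the place at 208 bases does. The log2 fold changes of Atg3 and Nrbf2, -0.05 and 0.10, lay on either side of 0, and neither gene passed the test.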

How the data were processed

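The submitters' processing notes name HISAT2 and the mouse build GRCm39. The sources used here give no counting program, strand setting or annotation. The authors deposited raw read counts per Ensembl gene, in whole numbers and without normalization, for each library. The 5 entries per file that name no gene (4.35% to 6.04% of reads in no feature, 5.14% to 10.1% ambiguous) stayed out of library sizes and tests. Of 57186 genes, 51880 matched a symbol; exon lengths, GC content and overlaps came from GENCODE vM21, which is on GRCm38 and not the build of the counts, and it gave no printed coordinates; those of the promoter stretches are from RefSeq on GRCm38.p6. Groups were taken from the titles. Genes were filtered with filterByExpr (16766 tested), scaled by TMM and compared with edgeR 4.0.16 in R 4.3.3 (quasi-likelihood, robust, group as the only term), with Benjamini-Hochberg adjustment over all genes and a threshold of 0.05. Levels are TMM-scaled CPM, with deviations on log2 CPM with a prior count of 2. Alternatives were DESeq2 1.42.0, limma voom 3.58.1, other filters and scalings, a replicate block, GC-content offsets (loess, span 0.5) and libraries left out. The script was tested on simulated data with 16766 genes.

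All members were named. Values by library were given for the member with the lowest p and the one with the highest level per kb in each step, any member whose groups did not overlap, and the ULK, WIPI, ATG2 and ATG4 families; the 2 lowest p-values were named per regulator list. Atg7, Rheb, the shares of the ULK family and the neighbours of Atg7 were added after their values were seen. The members and lists were chosen with earlier results of these data known.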

Additional observations from a re-analysis of the deposited data

Results flagged for a closer look

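In 70 groups of 4 libraries (35 genes, 2 groups), 1 library stood far from the other 3 in 4 cases, by Dixon's 95% criterion, which chance meets in about 1 of 20 groups. Atg9a held 96.2 CPM in cKO 1 against 75.6 to 77.0 CPM in the other cKO libraries. Atg16l1 held 55.2 CPM in control 1 against 62.7 to 63.5 CPM in the other controls. Atg14 held 17.2 CPM in cKO 2 against 20.2 to 20.5 CPM, and Nrbf2 12.6 CPM in cKO 4 against 14.7 to 14.9 CPM, in the other cKO libraries.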

How the results depend on the processing

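The count of members past the threshold was 0 in all 18 alternatives, and the lowest adjusted p of any member in any of them was 0.680 (edgeR, Rb1cc1 without cKO 4). The count of members at an unadjusted p under 0.05, which was 1, fell to 0 with library totals alone, DESeq2, GC-content offsets, and both replicates 3 left out; with 1 library left out it ran from 0 to 2. The gene at that level was not always Atg10. It was Atg2b without control 4 and Rb1cc1 without cKO 4. Without cKO 2 the genes were Ulk1 and Atg16l1, and without control 3 there were 0. The count of all genes called, which was 4, was 7 with no low-count filter, 2 with limma voom, 2 without both replicates 1 and 0 without both replicates 3, and from 0 to 3 with 1 library left out; no gene passed without control 2 or without cKO 2. With the replicate number as a block 2 genes passed. A pairing by number was not shown over all genes: same-numbered deviations correlated at 0.0052, 0.025, 0.043 and 0.049, while control 4 and cKO 3 correlated at 0.105. Whether libraries of the same number belong together cannot be told from these values. Atg7 was low in both replicates 3, and a pairing in single genes was not tested. The median over members was -0.016 without both replicates 1, and from -0.030 (without cKO 1) to 0.016 with 1 library left out.

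For 16 of 35 genes the log2 fold change kept its sign in every alternative. Signs turned for Rubcn (-0.0017) and Atg5 (-0.0014) with no filter, Rubcn (-0.00018) with a minimum of 1 CPM, Rubcn (-0.0013) and Atg5 (-0.00097) with DESeq2 size factors, Rubcn (-0.0020) and Atg5 (-0.0010) in DESeq2, Atg101 (0.0040) with library totals, Rubcn (-0.00030), Atg4a (-0.0041) and Stx17 (-0.0085) in limma voom, and Stx17 (-0.00049) with the replicate block. Without both replicates 1 they turned for Ambra1 (-0.0028), Uvrag (0.0017), Rubcn (-0.046), Wdr45 (-0.0018), Wdr45b (-0.027), Atg2a (-0.087), Atg9a (-0.020), Atg4b (-0.022), Stx17 (-0.049) and Plekhm1 (-0.0022). Without both replicates 3 they turned for Atg101 (0.052), Pik3c3 (-0.027), Atg14 (-0.024), Atg5 (-0.014), Atg4a (-0.055) and Stx17 (-0.097). With GC-content offsets they turned for Ambra1 (-0.032), Rubcn (-0.040), Atg3 (0.0034), Atg12 (0.0093), Wdr45 (-0.0058), Atg2a (-0.012) and Atg9a (-0.0058). With 1 library left out the values ran from -0.057 to 0.048 for Atg101, -0.023 to 0.061 for Pik3c3, -0.014 to 0.023 for Ambra1, -0.033 to 0.022 for Uvrag, -0.045 to 0.025 for Rubcn, -0.061 to 0.027 for Atg5, -0.13 to 0.20 for Atg7, -0.052 to 0.0030 for Atg12, -0.013 to 0.050 for Wipi1, -0.064 to 0.11 for Wdr45, -0.034 to 0.047 for Wdr45b, -0.043 to 0.14 for Atg2a, -0.041 to 0.084 for Atg9a, -0.075 to 0.16 for Atg4a, -0.031 to 0.051 for Atg4b and -0.074 to 0.089 for Stx17. The cause of these turns was not tested, and none of these values passed the threshold. Depth limits Atg4a (74 to 127 reads per library), Wdr45 and Atg10 most.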
